A study of Homo sapiens with 8 samples.

Results

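The interferon regulatory factors (IRFs) and signal transducers and activators of transcription (STATs) are the transcription factors that switch on interferon genes and carry out the response to interferon. Described here are 8 of them, IRF1, IRF2, IRF3, IRF5, IRF7, IRF8, IRF9 and STAT2, taken by gene name from the 60649 genes of each abundance table, where each name matched a single row. RNA-seq was made from HCT116, a human colorectal carcinoma cell line, and from UF1hypo, a clone of HCT116 with 1 UHRF1 allele disrupted by removal of exon 4. UHRF1 recruits the maintenance DNA methyltransferase DNMT1 to replicating chromatin. Each line expressed a short hairpin RNA, scrambled (shScr) or targeting UHRF1 (shUHRF1), which gave 4 groups (HCT116 shScr, HCT116 shUHRF1, UF1hypo shScr and UF1hypo shUHRF1) of 2 libraries each. UF1hypo is a single clone, so the deletion cannot be told apart from other differences of that clone, and the labels name the clone in the sample titles while giving HCT116 as the cell line of all 8 samples. The paper lists a single hairpin against UHRF1, so loss of UHRF1 cannot be told apart from other effects of that hairpin. The term knockdown stands here for shUHRF1 against shScr. Nothing in the labels says that the libraries of a group came from separate cultures, so p-values measure the spread between libraries, which may be technical.

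In the canonical pathway, sensors of nucleic acids use adaptors such as MAVS, STING1 and MYD88 to activate IRF3, IRF5 and IRF7, which induce the genes for type I and type III interferons. Secreted interferon binds its receptor, and the kinases JAK1 and TYK2 phosphorylate STAT2. Phosphorylated STAT2 joins IRF9 in the complex ISGF3, which binds the interferon-stimulated response element (ISRE) of its target promoters. IRF1 is induced through the gamma-activated site (GAS) and drives antigen presentation genes, IRF2 competes with IRF1 for the same sites, and IRF8 acts mainly in myeloid and B cells. IRF7, IRF9 and STAT2 are themselves interferon-stimulated genes.

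Levels are given as TPM, a transcript abundance that the authors computed with StringTie and that is scaled for gene length and library size, so that levels of different genes can be compared. The tables hold no read counts, and the number of reads behind a single value is therefore unknown. The aligned bases of each library were estimated as the most frequent ratio of coverage to FPKM, 5.42 to 7.83 gigabases. Between 2018 and 3014 genes of a library had that ratio, out of 13845 to 15644 for which it was computed. The replicates of a group correlated with Pearson's r of 0.991 to 0.992 across 13781 genes in 3 groups and of 0.956 in UF1hypo shUHRF1. The replicates of UF1hypo shUHRF1 stood apart by the GC content of the transcripts (Spearman's rho of -0.80 across genes, replicate 2 minus replicate 1). Those of UF1hypo shScr did so in the opposite direction (rho of 0.50), while the rho was 0.04 in HCT116 shScr and 0.07 in HCT116 shUHRF1. Log2 fold changes are differences of mean log2(TPM + 1) from a single limma fit to all 8 libraries, with Benjamini-Hochberg adjustment over all tested protein-coding genes. Genes are termed called where the adjusted p fell under 0.05 and the log2 fold change exceeded 1 in size. An exact permutation test of 1 gene, two-sided, has 0.3333 as its smallest possible p with 2 libraries per group. In bulk RNA, more cells that express a gene and more RNA per cell cannot be told apart.

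UHRF1 itself, the target of the hairpin, had a TPM of 87.5 and 98.4 (HCT116 shScr), 31.7 and 32.7 (HCT116 shUHRF1), 47.3 and 50.6 (UF1hypo shScr) and 34.1 and 21.1 (UF1hypo shUHRF1). Both knockdown libraries were below both shScr libraries in each line. The log2 fold change was -1.50 (SE 0.222, limma adjusted p = 0.0564) in HCT116 and -0.84 (SE 0.221, limma adjusted p = 0.0406) in UF1hypo, and neither met both thresholds. Without replicate 1 or replicate 2 of UF1hypo shUHRF1 the UF1hypo value was -1.17 (limma adjusted p = 0.0020, called) or -0.51 (limma adjusted p = 0.0148), and it was also called with the GC content and length correction, at -1.02. The HCT116 value was called under 6 alternatives, with limma adjusted p of 2.3e-05 to 0.0499, and it was not called when 1 of the HCT116 libraries was left out. The gene-level TPM also counts transcripts from the allele without exon 4 and so does not measure the intact allele alone.

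Of the 8 factors, 7 were expressed in every library, with a lowest TPM of 3.46, and passed the filter of TPM above 1 in all comparisons. IRF8 was the exception. It was listed at 0 in 6 libraries, at 0.0310 in replicate 2 of UF1hypo shScr and at 0.0231 in replicate 1 of UF1hypo shUHRF1, and it was not tested.

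**Figure D1:**
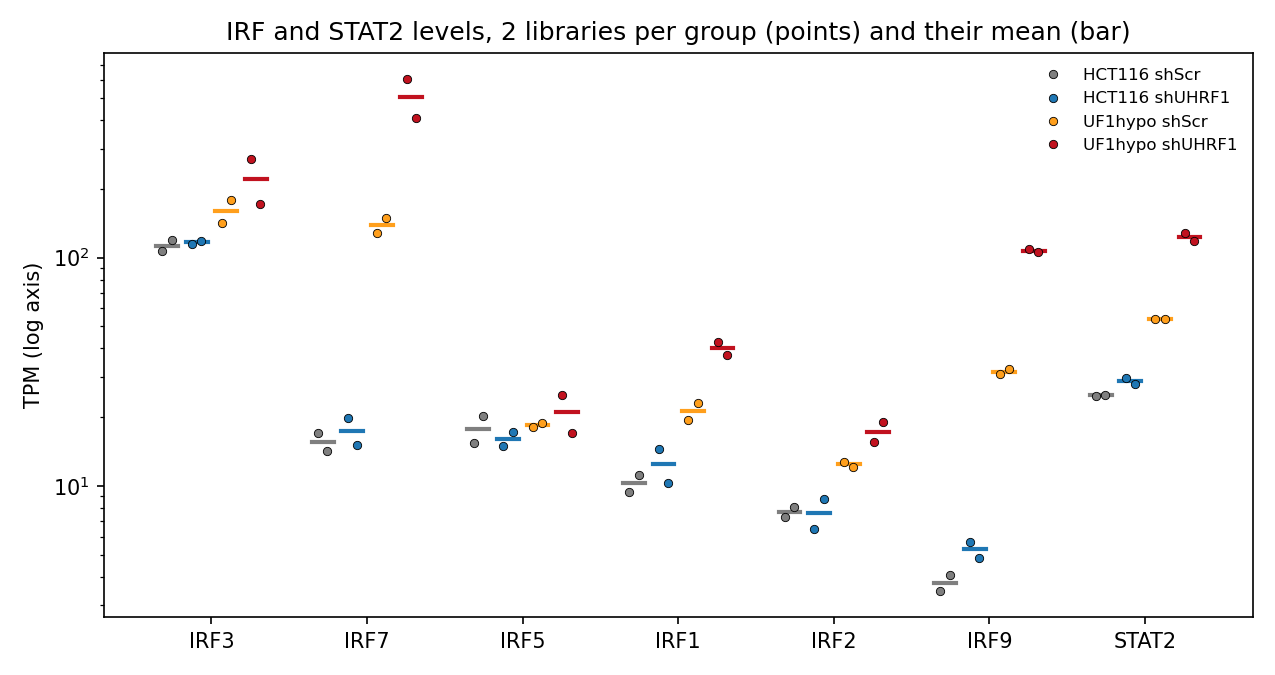
TPM (log axis) of the 7 expressed factors in the 8 libraries, with points for the 2 libraries of a group and a bar for their mean. IRF7 lies at 14.2 to 19.9 in the HCT116 libraries and at 407 and 608 in UF1hypo shUHRF1, while those of IRF5 lie between 15.0 and 24.9 in all groups.

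IRF3 is made constitutively and is the first of these factors to be activated when a nucleic acid sensor fires. Its TPM was 107 and 119 (HCT116 shScr), 115 and 119 (HCT116 shUHRF1), 142 and 179 (UF1hypo shScr) and 269 and 172 (UF1hypo shUHRF1). The libraries of the 2 hairpins overlapped within each line, and the knockdown log2 fold change was 0.05 (SE 0.219) in HCT116 and 0.43 (SE 0.219, limma adjusted p = 0.245) in UF1hypo. Without replicate 1 or replicate 2 of UF1hypo shUHRF1 the latter was 0.11 or 0.75 (limma adjusted p = 0.630 or 0.00984), not called either way. UF1hypo against HCT116 gave 0.50 with shScr (SE 0.219, limma adjusted p = 0.275) and 0.88 with shUHRF1 (SE 0.219, limma adjusted p = 0.0182), and neither was called. Without replicate 2 of UF1hypo shUHRF1, the latter value was 1.2 and was called (limma adjusted p = 0.00121), and without replicate 1 it was 0.56. IRF3 shares 734 bases with BCL2L12 on the opposite strand, whose mean TPM was 147, 188, 119 and 161 in the groups HCT116 shScr, HCT116 shUHRF1, UF1hypo shScr and UF1hypo shUHRF1, and the sources do not say whether counting used strand.

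IRF7 (GRCh38, chr11:612553-615983, minus strand) amplifies the interferon response once it has been induced. Its TPM was 17.0 and 14.2 (HCT116 shScr), 19.9 and 15.1 (HCT116 shUHRF1), 128 and 150 (UF1hypo shScr) and 608 and 407 (UF1hypo shUHRF1). The HCT116 libraries of the 2 hairpins overlapped, whereas every UF1hypo library was above every HCT116 library, and both UF1hypo shUHRF1 libraries were above both UF1hypo shScr libraries. In UF1hypo, IRF7 was higher with shUHRF1 than with shScr by a log2 fold change of 1.84 (SE 0.230, limma adjusted p = 0.00148), a ratio of mean TPM of 3.65. In HCT116 the log2 fold change was 0.14 (SE 0.230, limma adjusted p = 1.00). The clone exceeded HCT116 by 3.08 with shScr (SE 0.230, limma adjusted p = 0.000167) and by 4.77 with shUHRF1 (SE 0.230, limma adjusted p = 4.06e-06), ratios of mean TPM of 8.90 and 29.1. Leaving out replicate 1 or replicate 2 of UF1hypo shUHRF1 gave a knockdown log2 fold change of 1.55 or 2.13, and IRF7 was called either way.

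IRF5 acts downstream of MYD88 in the induction of inflammatory cytokines. Its TPM was 15.3 and 20.2 (HCT116 shScr), 15.0 and 17.2 (HCT116 shUHRF1), 18.1 and 18.9 (UF1hypo shScr) and 24.9 and 17.0 (UF1hypo shUHRF1). The libraries of neighbouring groups overlapped throughout. The log2 fold changes were -0.13 and 0.15 for the knockdown in HCT116 and UF1hypo and 0.07 and 0.34 for the clone with shScr and shUHRF1, with SEs of 0.230 to 0.231, and none was called. Without replicate 1 or replicate 2 of UF1hypo shUHRF1, the knockdown value in UF1hypo was -0.11 or 0.41 and the clone value with shUHRF1 0.082 or 0.60, still uncalled.

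The make-up of the IRF transcripts differed by group. IRF3 was the most abundant factor in HCT116 shScr, HCT116 shUHRF1 and UF1hypo shScr, with 67.2%, 66.5% and 41.9% of the summed TPM of the IRF genes. In UF1hypo shUHRF1 it held 24.2%, and IRF7 held 55.5%. The ratio of IRF7 to IRF3 TPM was 0.160 and 0.119 (HCT116 shScr), 0.173 and 0.127 (HCT116 shUHRF1), 0.901 and 0.837 (UF1hypo shScr) and 2.26 and 2.36 (UF1hypo shUHRF1) in the single libraries. Although the TPM of both genes differed between the UF1hypo shUHRF1 replicates, their ratio differed little. IRF8 contributed at most 0.00404%.

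**Figure D2:**
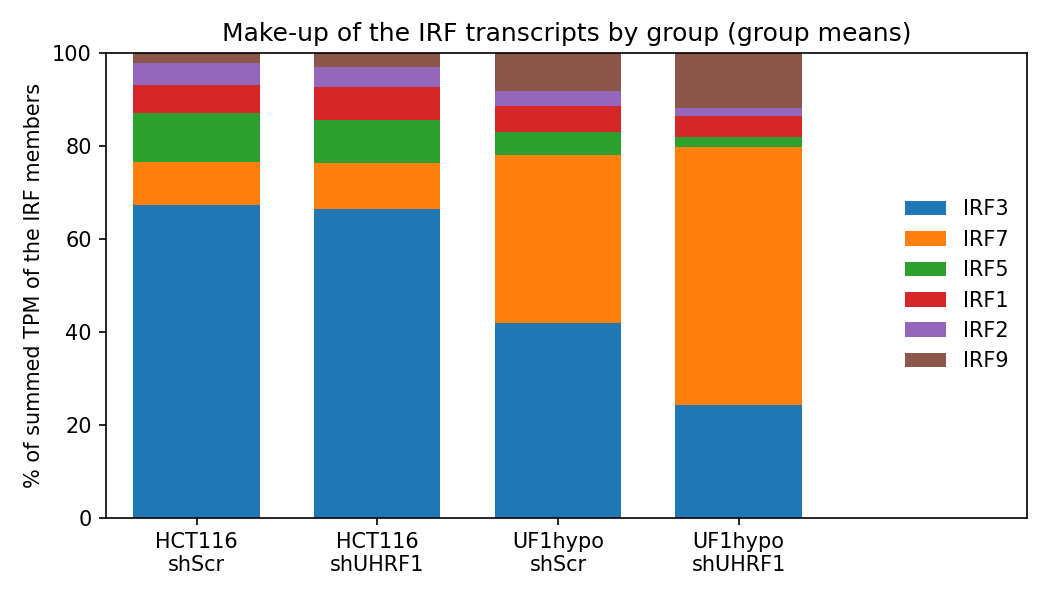
Percentage of the summed mean TPM of the IRF genes taken by each gene in the 4 groups (stacked bars from 0 to 100; IRF8 is too low to be drawn). The IRF3 share is 67.2% in HCT116 shScr and 24.2% in UF1hypo shUHRF1, where IRF7 takes 55.5%.

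IRF1 (chr5:132440440-132508719, minus strand, in the tables) had a TPM of 9.44 and 11.2 (HCT116 shScr), 14.5 and 10.3 (HCT116 shUHRF1), 19.5 and 23.1 (UF1hypo shScr) and 42.8 and 37.4 (UF1hypo shUHRF1). The HCT116 groups overlapped, and both UF1hypo groups lay above them without overlap between each other. The knockdown log2 fold change was 0.23 (SE 0.217, limma adjusted p = 1.00) in HCT116 and 0.88 (SE 0.217, limma adjusted p = 0.0314) in UF1hypo, where it passed the p threshold and missed the fold threshold. Without replicate 1 of UF1hypo shUHRF1 it missed both (0.79, limma adjusted p = 0.0653). The p threshold alone was also passed for the clone with shScr (0.98, SE 0.217, limma adjusted p = 0.0404). With shUHRF1 the clone was called, at 1.63 (SE 0.218, limma adjusted p = 0.00105). With a pseudocount of 0.1 or median-ratio scaling the clone effect with shScr was 1.04 or 1.03 and was called. IRF1-AS1, which runs opposite to IRF1 over 48263 bases, had mean TPMs of 2.37, 2.74, 4.26 and 7.20 in HCT116 shScr, HCT116 shUHRF1, UF1hypo shScr and UF1hypo shUHRF1, and reads of the pair cannot be separated without strand.

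IRF2, the competitor of IRF1, was lower than IRF1 in mean TPM in every group. Its TPM was 7.30 and 8.12 (HCT116 shScr), 6.50 and 8.75 (HCT116 shUHRF1), 12.8 and 12.1 (UF1hypo shScr) and 15.6 and 19.1 (UF1hypo shUHRF1). The HCT116 groups overlapped, and the UF1hypo groups did not. The knockdown log2 fold change was -0.02 (SE 0.213) in HCT116 and 0.44 (SE 0.213, limma adjusted p = 0.224) in UF1hypo, and the clone effect with shScr was 0.63 (SE 0.213, limma adjusted p = 0.154), none of them called. The clone effect with shUHRF1 was called at 1.09 (SE 0.213, limma adjusted p = 0.00651). That call was lost with FPKM in place of TPM (0.95), without replicate 1 of HCT116 shUHRF1 (0.90) and without replicate 2 of UF1hypo shUHRF1 (0.95). The ratio of IRF1 to IRF2 ranged from 1.18 to 2.24 in the HCT116 libraries and from 1.53 to 2.75 in the UF1hypo libraries, and these ranges overlapped.

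STAT2 (chr12:56341597-56360167, minus strand) acts mainly in the response to type I and type III interferons. Its TPM was 24.9 and 25.1 (HCT116 shScr), 29.7 and 27.8 (HCT116 shUHRF1), 53.7 and 54.1 (UF1hypo shScr) and 128 and 118 (UF1hypo shUHRF1). No group overlapped another. The knockdown log2 fold change was 0.20 (SE 0.150, limma adjusted p = 1.00) in HCT116 and 1.18 (SE 0.146, limma adjusted p = 0.00138) in UF1hypo, a ratio of mean TPM of 2.29. The clone exceeded HCT116 by 1.08 with shScr (SE 0.150, limma adjusted p = 0.00467) and by 2.06 with shUHRF1 (SE 0.146, limma adjusted p = 3.57e-05). Leaving out any 1 of the HCT116 shScr or UF1hypo shScr libraries raised the adjusted p of the clone effect with shScr to between 0.0650 and 0.0773, at log2 fold changes of 1.07 to 1.08.

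IRF9 (chr14:24161265-24166565, plus strand), the DNA-binding partner of STAT2, had the lowest level of the 7 expressed factors in HCT116. Its TPM was 3.46 and 4.07 (HCT116 shScr), 5.71 and 4.85 (HCT116 shUHRF1), 30.9 and 32.5 (UF1hypo shScr) and 109 and 106 (UF1hypo shUHRF1), and again no group overlapped another. The knockdown log2 fold change was 0.40 (SE 0.180, limma adjusted p = 0.803) in HCT116 and 1.73 (SE 0.179, limma adjusted p = 0.000545) in UF1hypo, a ratio of mean TPM of 3.39. The clone exceeded HCT116 by 2.78 with shScr (SE 0.180, limma adjusted p = 8.36e-05) and by 4.11 with shUHRF1 (SE 0.179, limma adjusted p = 2.99e-06). The ratio of IRF9 to STAT2 TPM was 0.139 and 0.162 (HCT116 shScr), 0.192 and 0.174 (HCT116 shUHRF1), 0.575 and 0.602 (UF1hypo shScr) and 0.852 and 0.893 (UF1hypo shUHRF1).

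The IRF9 values are uncertain, because a second protein-coding gene, ENSG00000259529, shares 5188 bases with IRF9 on the same strand, 1544 of them in exons of both genes in GENCODE version 44. Its mean TPM was 28.5 (HCT116 shScr), 32.7 (HCT116 shUHRF1), 70.2 (UF1hypo shScr) and 76.6 (UF1hypo shUHRF1). How StringTie divided reads between the 2 genes cannot be seen in the tables. Their summed TPM was 32.3 and 32.1 (HCT116 shScr), 40.8 and 35.1 (HCT116 shUHRF1), 102 and 102 (UF1hypo shScr) and 197 and 171 (UF1hypo shUHRF1), and the order of the groups was the same as for IRF9 alone. Fitted in place of IRF9, a choice made after seeing the data, the sum gave a knockdown log2 fold change of 0.84 in UF1hypo (SE 0.152, limma adjusted p = 0.00834), which missed the fold threshold. The clone effects of the sum were 1.63 with shScr (SE 0.156, limma adjusted p = 0.000662) and 2.25 with shUHRF1 (SE 0.152, limma adjusted p = 2.82e-05), both called.

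**Figure D3:**
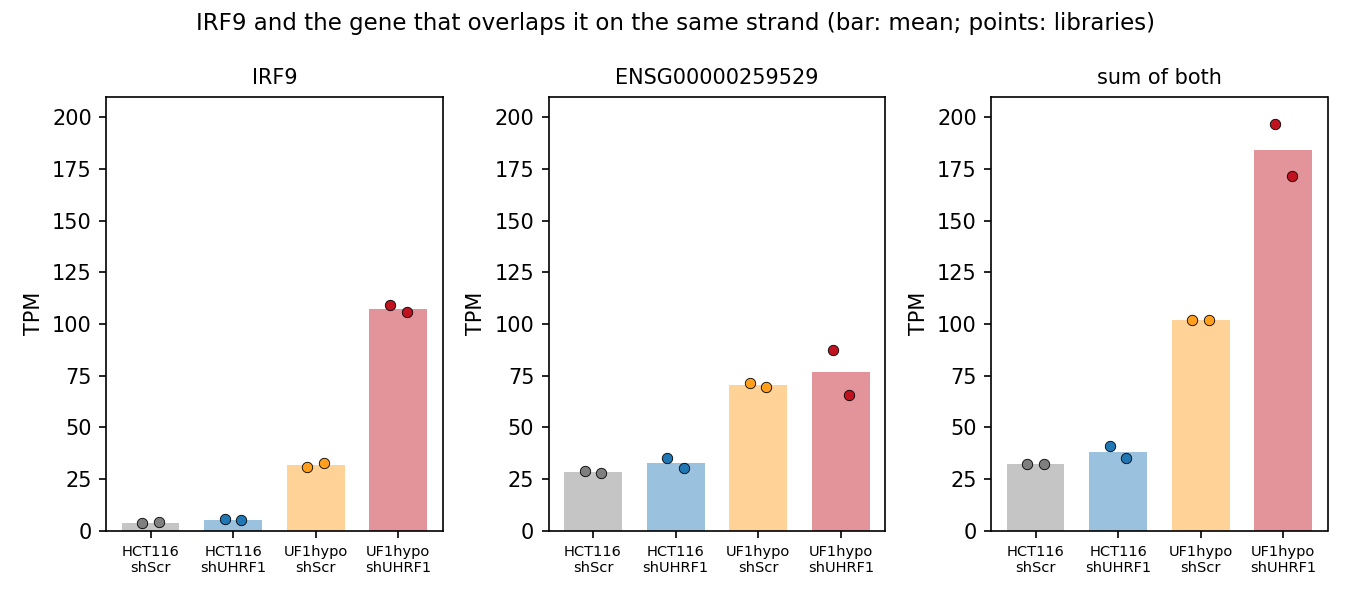
TPM of IRF9, of the gene ENSG00000259529 that overlaps it on the same strand and of their sum, with bars for the group mean and points for the 2 libraries. IRF9 alone goes from 3.46 to 109 across the libraries and the sum from 32.1 to 197.

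Counted together, 0 of the 7 tested factors were called in the knockdown of HCT116, where 0.0472% of all 12704 tested genes were called higher. In the limma fit of all 8 libraries, 810 genes had an unadjusted p below 0.05 in that comparison, and none of the 7 factors did. For IRF9 this depended on the UF1hypo shUHRF1 libraries, because the 4 groups share the spread of the fit. In HCT116, both shUHRF1 libraries exceeded both shScr libraries for IRF9 and STAT2, 2 of the 7 factors, against 20.1% of all tested genes with both libraries above, a share near the background. In the knockdown of UF1hypo, 3 of 7 (IRF7, IRF9 and STAT2) were called higher against 7.39% of 13620 genes, and 5 of 7 had both shUHRF1 libraries above both shScr libraries against 30.6%. The median log2 fold change of the 7 was 0.88, and that of all tested genes was 0.04. With IRF9 replaced by the sum with its overlapping gene, 2 of 7 were called. The 3 calls held without replicate 1 and without replicate 2 of UF1hypo shUHRF1. In the clone against HCT116 with shScr, 3 of 7 were called higher against 2.59% of genes, and 6 of 7 had both UF1hypo libraries above both HCT116 libraries against 29.1%. With shUHRF1, 5 of 7 were called higher against 12.2%, and 6 of 7 had both UF1hypo libraries above against 36.0%. These comparisons share libraries with each other, so their counts are not independent.

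**Figure D4:**
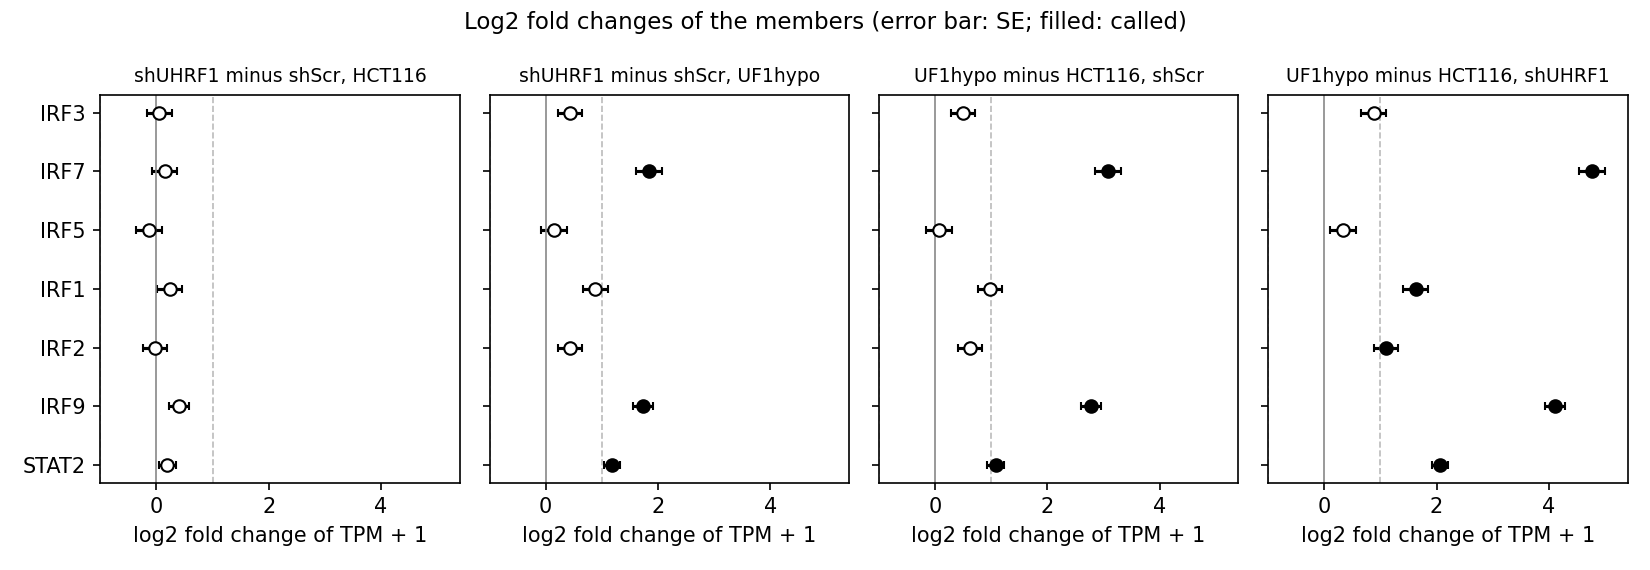
Log2 fold changes of TPM + 1 with their SE for the 7 expressed factors in the 4 comparisons, filled where called (adjusted p below 0.05 and absolute log2 fold change above 1, dashed lines). In HCT116 the knockdown values lie between -0.13 and 0.40, and in UF1hypo they reach 1.84 for IRF7.

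Whether the knockdown acted differently in the 2 lines was tested as an interaction in the same fit. The difference between the effects, UF1hypo minus HCT116, was 1.69 for IRF7 (SE 0.326, limma adjusted p = 0.0233) and 1.33 for IRF9 (SE 0.253, limma adjusted p = 0.0222), both called, against 4.54% of 13781 genes called higher. For STAT2 it was 0.98 (SE 0.206, limma adjusted p = 0.0333), below the fold threshold, and without replicate 2 of UF1hypo shUHRF1 it was 1.04 and called (limma adjusted p = 0.00518). IRF1 had a difference of 0.65 (SE 0.307, limma adjusted p = 0.312), IRF2 of 0.47, IRF3 of 0.38 and IRF5 of 0.27, and none of these passed the test. Without replicate 1 or replicate 2 of UF1hypo shUHRF1 the difference was 0.060 or 0.70 for IRF3 and 0.014 or 0.54 for IRF5, uncalled throughout. Leaving out any 1 of the 6 libraries other than those of UF1hypo shUHRF1 took the adjusted p of IRF7 to between 0.0720 and 0.129 and that of IRF9 to between 0.0737 and 0.140, which leaves no factor called. For the sum of IRF9 and its overlapping gene the difference was 0.62 (SE 0.215, limma adjusted p = 0.164).

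The promoters of these genes were read from RefSeq (GRCh38.p14), as windows from 250 bases before the start to 50 after it. The tables held windows for 5 of the 8 genes, IRF1, IRF5, IRF8, IRF9 and STAT2, and none for IRF2, IRF3 and IRF7. A GAS-like motif, TTCNNNGAA, which reads the same on both strands, was present in the windows of IRF1 and IRF9 and in 7.66% of all 34943 windows. An ISRE-like motif, GAAA followed by any 2 bases and a second GAAA on either strand, was in none of the windows of these 5 genes and in 3.57% of all windows. Both GAS-like stretches are shown 5′ to 3′ on the strand of the gene, with the motif in capitals. The IRF1 stretch is chr5:132490869-132490917 (minus strand), with the motif 124 to 116 bases before the RefSeq start, and the IRF9 stretch is chr14:24161182-24161230 (plus strand), with the motif 63 to 55 bases before it.
IRF1: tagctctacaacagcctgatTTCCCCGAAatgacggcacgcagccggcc
IRF9: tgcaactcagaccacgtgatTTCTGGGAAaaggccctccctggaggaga

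Among 28 genes that ISGF3 is known to switch on, 24 had a RefSeq window, 18 of the 24 held the ISRE-like motif and 6 the GAS-like motif. A gene was counted if any of its windows matched, whereas the shares given above are per window. Of the genes controlled by IRF1 and interferon gamma, 15 had a window, and 11 held the ISRE-like and 6 the GAS-like motif. An ISRE-like match is set beside the GAS-like stretches for the 3 genes of the ISGF3 list with the highest mean TPM. These are ISG15, IFI6 and IFI27, shown with the match in capitals, on the strand of the gene. They lie at chr1:1013364-1013413 (plus strand), chr1:27672278-27672327 (minus strand) and chr14:94110608-94110657 (plus strand). Each of the 3 windows holds more than 1 match, and that of ISG15 overlaps the one shown. The IFI27 match in capitals is the motif read on the opposite strand, and a match on the strand of the gene follows it.
ISG15: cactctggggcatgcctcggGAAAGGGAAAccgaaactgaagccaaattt
IFI6: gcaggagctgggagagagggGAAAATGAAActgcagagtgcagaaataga
IFI27: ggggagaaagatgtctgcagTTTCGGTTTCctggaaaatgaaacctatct

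ISG15, a ubiquitin-like modifier, had a mean TPM of 205 (HCT116 shScr), 269 (HCT116 shUHRF1), 2217 (UF1hypo shScr) and 8420 (UF1hypo shUHRF1). In UF1hypo its knockdown log2 fold change was 1.88 (SE 0.227, limma adjusted p = 0.00127). MX1, an antiviral GTPase, was at 4.22 and 4.49 in UF1hypo shScr and at 637 and 595 in UF1hypo shUHRF1, the largest log2 fold change of the list at 6.85 (SE 0.187, limma adjusted p = 2.03e-06). OAS2, which makes the activator of the nuclease RNase L, followed at 5.10, and IFI6 and IFI27 rose by 1.75 and 1.87. Of the 28 targets, 26 were called higher in the knockdown of UF1hypo, with a median of 2.18, against 7.39% of all genes. In the difference between the lines 19 were called higher, against 4.54%. Only 18 of the 28 had a TPM above 1 in any HCT116 library, and for the rest the difference largely repeats the UF1hypo effect. Of the 26 calls, 2 were of genes that passed the filter only through UF1hypo shUHRF1. The 2 targets without a call were SAMD9 at 1.2 (limma adjusted p = 0.110) and HERC5 at 0.95 (limma adjusted p = 0.0853). Without replicate 2 of UF1hypo shUHRF1 the 26 became 24, and without replicate 1 they became 28. In HCT116, 18 targets passed the filter and 0 were called, with a median of 0.27 against -0.03 over all genes. Their largest value was 1.44 for IFI27 (SE 0.274, limma adjusted p = 0.121). Both shUHRF1 libraries exceeded both shScr libraries for 10 of the 18, against 20.1% of all genes. For 1 both were below, against 3719 of 12704 genes. Of the 18, 3 (IFIT2, IFIT3 and CMPK2) passed the filter only through HCT116 shUHRF1. All 3 are among the 10, where the filter itself favoured them, so the 10 are given as a description. In the clone with shScr, 23 of 26 tested targets were called higher, against 2.59% of all genes, among them IFI6 at 6.52 and IFI27 at 7.97. Of these 23, 10 were of genes that passed the filter only through UF1hypo shScr.

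Of 20 genes controlled by IRF1 and interferon gamma, 15 were tested in the knockdown of UF1hypo and 10 were called higher, with a median of 1.32, against 7.39% of all genes. Of the 10, 2 had passed the filter only through UF1hypo shUHRF1. PSMB8, an immunoproteasome subunit, went from a mean TPM of 2.30 to 92.5 there, a log2 fold change of 4.83 (SE 0.228, limma adjusted p = 7.82e-06). GBP1, a guanylate-binding GTPase, was among those 2, with a TPM of 4.04 and 4.29 in UF1hypo shUHRF1 and of at most 0.286 in any other library, and its log2 fold change of 2.11 is given as a description. B2M, the light chain of class I molecules, had a value of 0.92 (limma adjusted p = 0.0169), below the fold threshold. HLA-B rose by 1.34 and HLA-E by 1.06, although reads of these class I genes may be shared with their close relatives. In the clone with shScr 5 of 13 were called higher, against 2.59% of all genes, and 1 of the 5 had passed the filter only through UF1hypo shScr. The calls were led by PSMB9, another immunoproteasome subunit, at 3.60 and TAP1, a peptide transporter, at 1.33. ICAM1, an adhesion molecule, was called lower at -1.33, where 0.949% of all genes were called lower. ICAM1 was called higher in the knockdown of UF1hypo, at 1.88. In HCT116, 0 of 12 tested were called, with a median of -0.04.

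IRF3 and IRF7 are known to induce the type III interferon genes and CCL5, a chemokine for T cells. IFNL1 was listed at 0 and 0.124 (HCT116 shScr), 0 and 0.123 (HCT116 shUHRF1), 0.627 and 0 (UF1hypo shScr) and 14.0 and 9.55 (UF1hypo shUHRF1). CCL5 was at 4.49 and 5.27 in UF1hypo shUHRF1 and at most at 0.316 in any other library. IFNL1 (3.30), IFNL2 (1.61), IFNL3 (2.92) and CCL5 (2.43) were all called in the knockdown of UF1hypo, with limma adjusted p of 0.000147 to 0.0229. They were tested there only because UF1hypo shUHRF1, where they were high, passed the filter, so their calls are given as a description. IFNL2 and IFNL3 are near-identical genes whose reads can be divided arbitrarily. Without replicate 1 of UF1hypo shUHRF1, 3 of the 4 were called. The type I interferon genes IFNB1 and IFNA1 had a TPM of at most 0.584 in any library and were not tested.

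**Figure D5:**
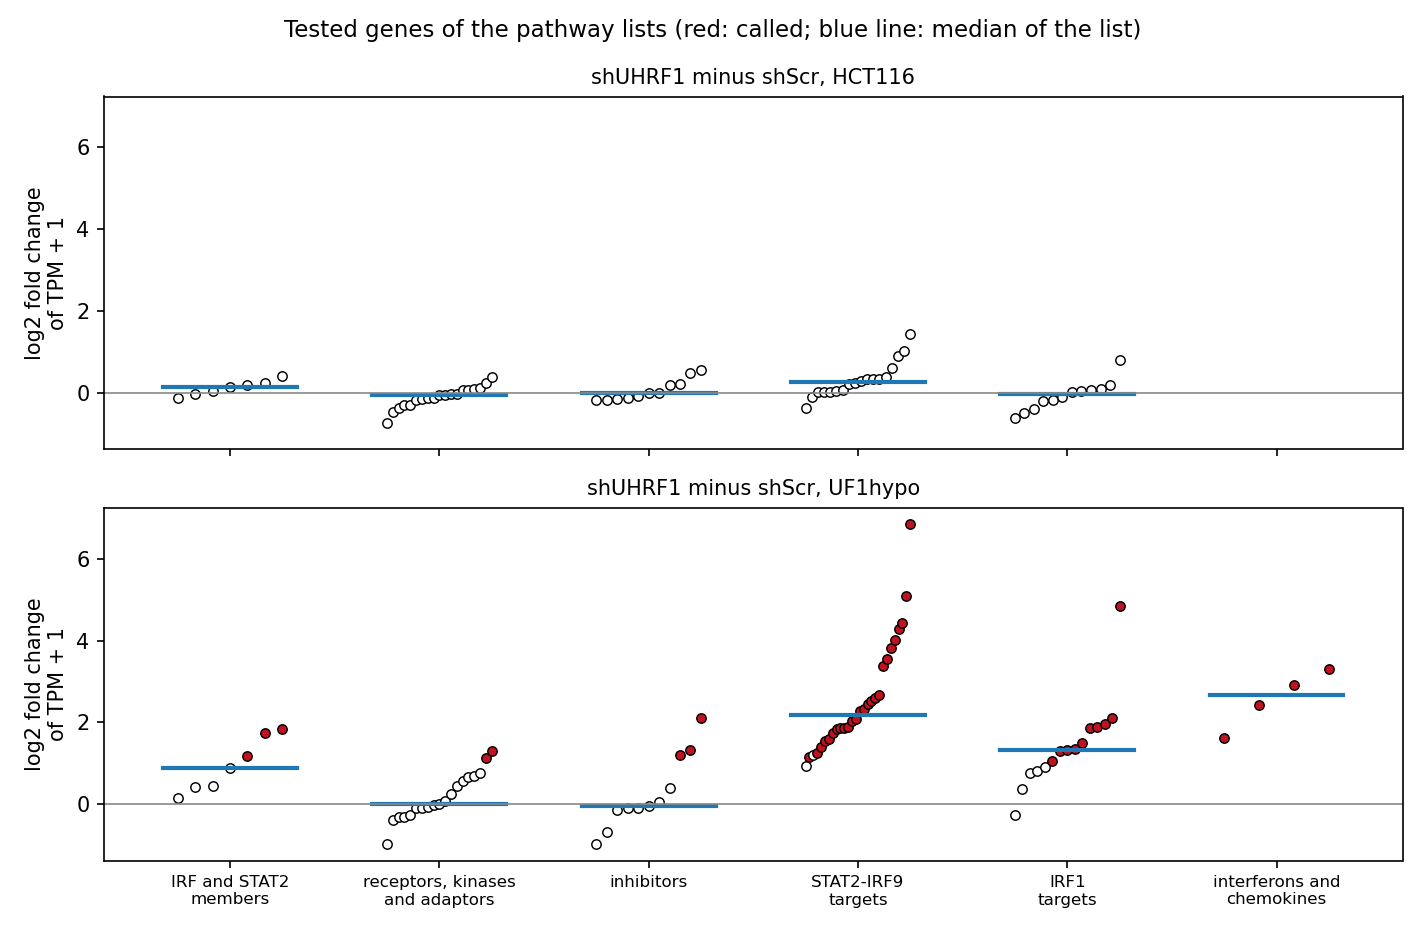
Log2 fold changes of TPM + 1 of the factors and of every tested gene in 5 lists of the pathway for the knockdown in HCT116 (top) and UF1hypo (bottom), red where called, with a blue line at the median of each list. In HCT116 no gene is called, and in UF1hypo 26 of 28 ISGF3 targets are, with a median of 2.18, while the medians of the receptors, kinases and adaptors and of the inhibitors lie near 0.

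Among other genes of both families, STAT3 and STAT6, which serve the interleukin 6 and interleukin 4 pathways, had mean TPMs of 48.8 to 81.4 and 63.4 to 112 over the groups, and IRF4, a lymphocyte factor, of at most 0.121. STAT4 and STAT5B had mean TPMs of 1.55 to 2.19 and 5.98 to 8.40. STAT5A had a mean TPM of 0.0224 in UF1hypo shScr and 0.942 in UF1hypo shUHRF1, and it passed the filter only through replicate 1 of the latter. STAT3, STAT4, STAT5A, STAT5B and STAT6 were not called in any comparison, and IRF4 was not tested.

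Of 19 receptors, kinases and adaptors that activate these factors, 2 were called in the knockdown of UF1hypo, MYD88 at 1.30 (SE 0.171, limma adjusted p = 0.00191) and TICAM1, the adaptor of Toll-like receptor 3, at 1.13 (SE 0.192, limma adjusted p = 0.00625), and the median of the list was 0.00. Over all genes 7.39% were called higher, so 2 of 19 is near the background. Without replicate 1 of UF1hypo shUHRF1, 1 was called higher and 1 lower, and without replicate 2, 3 were called higher. MYD88 was at 17.6 and 19.0 (HCT116 shScr), 18.7 and 17.3 (HCT116 shUHRF1), 41.7 and 46.9 (UF1hypo shScr) and 121 and 100 (UF1hypo shUHRF1). MYD88 and STING1 were called in the clone with shScr, at 1.23 and 1.08. STING1 was at 28.8 and 34.6 in UF1hypo shScr and at 17.4 and 13.7 in UF1hypo shUHRF1, where the knockdown value was -0.99 (SE 0.209, limma adjusted p = 0.0172), just below the fold threshold. IRAK1, the kinase below MYD88, was called in the clone with shUHRF1 alone, at 1.18. The kinase TYK2 and the receptor chain IFNGR2 were not called in any comparison.

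Of 11 inhibitors of IRF and STAT signalling, 3 were called higher in the knockdown of UF1hypo, against 7.39% of all genes. USP18, which blocks the type I interferon receptor and is itself interferon-stimulated, rose from a mean TPM of 25.8 to 115 (2.11, SE 0.194, limma adjusted p = 0.000309). SOCS1, an inhibitor of JAK kinases, rose by 1.34 and the phosphatase PTPN1 by 1.19, and the median of the list was -0.04. IRF2BPL, of the family that binds IRF2, was at 42.2 and 39.1 (HCT116 shScr), 42.7 and 38.8 (HCT116 shUHRF1), 118 and 123 (UF1hypo shScr) and 70.3 and 53.2 (UF1hypo shUHRF1). It was called in the clone with shScr at 1.55 (SE 0.176, limma adjusted p = 0.00174), and its knockdown value in UF1hypo was -0.97 (SE 0.174, limma adjusted p = 0.00804). PTPN11, a phosphatase of the list with the highest TPM averaged over the 8 libraries, was not called in any comparison. In HCT116, 0 of the 11 inhibitors and 0 of the 19 activators were called in the knockdown.

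Across the 8 libraries, the genes whose log2(TPM + 1) was most like that of a factor were ranked among 13780 genes, as a description of libraries that form 4 groups. For IRF7 they were HSH2D, ISG15 and FHL1 (r of 0.999 each), and for IRF9 they were BATF2, PSME2 and CAPN3 (r of 0.996 to 0.997). STAT2 was most like PTGDS, TAP1 and AQP3, with r of 0.996 each. IRF1 was nearest to ZCCHC2, SEC61A1 and NEU1 (r of 0.992 to 0.996) and IRF2 to NMI, SP110 and LTB (r of 0.980 to 0.988). Such values were common, since 403 to 514 genes had an r above 0.95 with IRF1, IRF7, IRF9 or STAT2, and 84 with IRF2. Among the factors, the r was 0.995 between IRF7 and IRF9 and 0.989 between IRF9 and STAT2, and it was between 0.52 and 0.79 for IRF5 with the other 6.

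Markers of other cell types were checked because leukocytes express several of these factors. The summed TPM of 13 leukocyte markers was 2.39 to 2.99 (HCT116 shScr), 2.51 to 2.76 (HCT116 shUHRF1), 3.07 to 3.78 (UF1hypo shScr) and 6.73 to 11.1 (UF1hypo shUHRF1). PTPRC, which all leukocytes carry, was at 0 in 6 libraries and at 0.0561 and 0.0728 in UF1hypo shUHRF1, CD2 was at 0 in all libraries, and the highest in UF1hypo shUHRF1 was CD3D (mean TPM 4.02, at most 0.349 in any library of the other groups). CD3D was called in the knockdown of UF1hypo, at 2.12, after passing the filter only through UF1hypo shUHRF1. In that group 2 of the 13 were at 0, and 3 had a mean TPM above 1, CD3D, CSF1R (1.65) and ITGAM (1.09). In UF1hypo shScr, CSF1R (1.33) and CD79A (1.16) did. Of 5 fibroblast markers only COL1A1 was above a mean TPM of 1, at 22.3 (HCT116 shScr), 24.3 (HCT116 shUHRF1), 25.5 (UF1hypo shScr) and 51.6 (UF1hypo shUHRF1). Of 10 colon epithelial and carcinoma markers, 7 were above a mean TPM of 1 in every group, and the summed TPM was 4355 to 4410 (HCT116 shScr), 5486 to 5605 (HCT116 shUHRF1), 8822 to 9095 (UF1hypo shScr) and 9968 to 12781 (UF1hypo shUHRF1). The part of these markers in the results for the factors was not tested.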

How the data were processed

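Gene expression was measured by RNA-seq in 8 libraries, 2 for each of 4 groups. Per the methods and labels, the authors trimmed the reads, aligned them to GRCh38 with HISAT2 2.0.4 and computed gene abundances with StringTie 2.1.4, and the annotation release and the use of strand are not given in the sources used here. As deposited, the coverage signal is the mean read depth per base of each gene, and the FPKM and TPM values were normalized by the authors for gene length and library size. No counts were present, so no count model was run. Gene identifiers were matched to GENCODE version 44 (60507 of 60649), records of 1 identifier were summed, and 19960 protein-coding genes were kept. limma 3.58.1 (R 4.3.3) was fitted to log2(TPM + 1) with the 4 groups as terms (4 residual degrees of freedom) and a variance trend, on genes with TPM above 1 in at least 1 library of a comparison. Adjusted p-values are Benjamini-Hochberg values over all tested genes. Gene lists are described by counts and medians, with no test. The genes named are the 8 factors, UHRF1, every gene of a list of at most 8 except some that are not reported here, and from longer lists the 3 of highest mean TPM and the 2 of largest change. ICAM1, SAMD9, HERC5 and the single markers were chosen after their values were seen. Members and lists were chosen with earlier results of these data known. The fit was tested on simulated data. Alternatives were another pseudocount (0.1), no filter, FPKM, median-ratio scaling, the 4 libraries of a comparison alone, no variance trend, the largest record of a gene, all annotated genes, a correction for GC content and length, the replicate number as a block, single libraries left out and, added after seeing the data, IRF9 summed with its overlapping gene. Python 3.11.15 with pandas 2.3.3 and matplotlib 3.10.9 did the rest.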

Additional observations from a re-analysis of the deposited data

Results flagged for a closer look

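At a limma adjusted p below 0.05, the effect of the UHRF1 knockdown differed between the 2 lines for 3 of the 7 factors. At that threshold alone, 634 of 13781 genes had a higher effect in UF1hypo and 86 a lower one. The difference (UF1hypo minus HCT116, log2 scale) was 1.69 for IRF7, 1.33 for IRF9 and 0.98 for STAT2, and STAT2 was not called. All 3 factors, and also IRF1 and IRF2, were higher in both UF1hypo shUHRF1 libraries than in any other. The calls of IRF7 and IRF9 depended on single libraries, as given above. For IRF9 summed with its overlapping gene the difference was 0.62 (limma adjusted p = 0.164). Groups of 2 libraries are too small to test for a library far from the others.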

How the results depend on the processing

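With 2 libraries per group and no counts, the precision of each factor rests on the spread shared by the 4 groups, and small differences were not detectable. Over 378 values from other settings and 280 from leaving out single libraries, 368 and 253 kept their direction and their side of the thresholds. In the knockdown of HCT116 no alternative called any of the 7 factors. The number of factors called in the difference between the knockdown effects was 2 and became 1 with the replicate block, 1 with IRF9 summed with its overlapping gene, and 0 to 3 without single libraries, where the lone library left in a group was assumed to vary like those of the other groups. The deviations of replicates with the same number had an r of -0.40 to 0.05 over the pairs of groups. The -0.40 was between UF1hypo shScr and UF1hypo shUHRF1, whose replicates differed by GC content in opposite directions (Spearman's rho of 0.50 and -0.80). Whether the numbers pair the samples therefore cannot be told. The replicate block (a paired fit) changed no other call of a factor (IRF9 1.33, limma adjusted p = 0.0537 in the difference between the knockdown effects). It took the adjusted p of the uncalled knockdown value of IRF1 in UF1hypo to 0.0592. Reversed in sign, all uncalled, were the knockdown of IRF2 in HCT116 (0.021 with median-ratio scaling and 0.063 with the GC content and length correction) and, with that correction, IRF5 in the knockdown of UF1hypo (-0.037) and in the clone with shScr (-0.0071). Without single libraries, the knockdown values in HCT116 ranged from -0.21 to 0.16 for IRF2, from -0.030 to 0.13 for IRF3, from -0.31 to 0.060 for IRF5 and from -0.045 to 0.33 for IRF7. IRF5 ranged from -0.11 to 0.41 in the knockdown of UF1hypo and from -0.12 to 0.25 in the clone with shScr, and UHRF1 in the clone with shUHRF1 from -0.59 to 0.078. The counts over all genes moved more. The knockdown of HCT116 called 6 genes higher and 3 lower in the fit of all libraries, 51 and 38 with its 4 libraries alone and 46 and 24 with the GC content and length correction, and 62 or 63 higher without replicate 1 or 2 of UF1hypo shUHRF1. The knockdown of UF1hypo called 1007 and 155, 516 and 47 with its 4 libraries alone, and 614 higher with FPKM. The difference called 625 and 77, 773 and 275 with the GC content and length correction, and 388 higher with a pseudocount of 0.1. Without single libraries the knockdown of UF1hypo called 591 to 1394 higher and 64 to 861 lower, the difference 153 to 1385 and 16 to 757, the clone with shScr 122 to 432 and 23 to 162, and the clone with shUHRF1 1257 to 2176 and 255 to 1683, the highest of the knockdown of UF1hypo, the difference and the clone with shUHRF1 without replicate 2 of UF1hypo shUHRF1. The order of the groups was the same with FPKM and TPM for 7 of the 7 factors. The cause of these changes was not tested.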
